A study of Mus musculus with 4 samples.

Results

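Irf8-high progenitors are the cells of mouse fetal liver with a high level of Irf8 transcripts and few transcripts of monocyte receptors. Members were selected on measured UMI counts of 8 genes. A cell was a member when it held at least 5 Irf8 UMIs (unique molecular identifiers, 1 for each captured transcript) per 10000 of its UMIs. It also had to stay under 3 per 10000 for Csf1r, Cx3cr1, Ccr2 and Trem2 together, under 5 for Ly6c2 and under 4 for Cebpe, and under 2 UMIs of Mcpt8. These bounds were met by 732 of 9960 cells. The cells came from C57Bl/6J embryos at day E14.5 and were sorted as Lin-Sca1-Kit+CD34+, a gate that holds myeloid and erythroid progenitors. The design lists 2 wild-type embryos and 2 embryos that lack -77, an enhancer upstream of Gata2, and each was profiled with the 10x Genomics Chromium platform. Libraries F and I were wild type and libraries A and B enhancer-deleted. The labels of the mutant give no zygosity. Should a library not be its own embryo, the tests cover technical spread alone.

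IRF8 is a transcription factor of the interferon regulatory factor family. It is known for directing myeloid progenitors towards monocytes and dendritic cells and for restraining the neutrophil fate. Progenitors on the monocyte path turn on the receptor of the growth factor M-CSF (Csf1r) and chemokine receptors (Cx3cr1, Ccr2) as they mature. GATA2, a zinc finger factor of stem and progenitor cells, acts in early progenitors and mast cells.

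The promoter of Irf8 is shown because the transcript of this gene defines the cells. Irf8 spans 120736358 to 120756694 on the + strand of chromosome 8 (GENCODE, GRCm38). The 250 bases before its start site, chr8:120736108-120736357 on the + strand (RefSeq, GRCm38.p6), are given 5′ to 3′. Capitals mark the 2 matches to TTCNNNGAA, the letters of the GAS element that STAT factors bind. This motif reads the same on both strands, and its matches begin at -171 and -153 from the start site.
Irf8 promoter: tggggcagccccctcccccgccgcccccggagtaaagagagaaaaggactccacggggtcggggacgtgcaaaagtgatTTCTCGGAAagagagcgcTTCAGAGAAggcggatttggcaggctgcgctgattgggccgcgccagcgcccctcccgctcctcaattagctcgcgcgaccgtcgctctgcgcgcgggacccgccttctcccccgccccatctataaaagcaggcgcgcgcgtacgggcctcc
Among 32851 promoter windows of the reference, each with 50 more bases after the start site, 8.30% held this motif. A downstream start site of Irf8 in the same reference, whose 250 bases before it are chr8:120738389-120738638, had 0 matches there. The ETS-IRF composite (GGAA and GAAA with any 2 bases between them) and the ISRE core (GAAA repeated after any 2 bases), searched on both strands, had 0 matches in the Irf8 windows and are held by 2.72% and 3.44% of all windows. Of 10 genes searched, Irf8 and genes named below as higher in the members, Ctsc also held the GAS letters. The match is a description of the letters and no measure of binding.

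The rule set the Irf8 level of the members, which is given without a test. The median member held 6.36 Irf8 UMIs per 10000 in library F, 6.14 in I, 6.49 in A and 6.72 in B, and the highest held 25.5. At 10 per 10000 or more stood 9 of 127 members in F, 3 of 64 in I, 33 of 209 in A and 57 of 332 in B. Just inside the bound, at 5 to 6 per 10000, stood 263 members, and 349 cells that met the other bounds stood just outside it, at 4 to 5. In raw counts the median member held 10 Irf8 UMIs in F, 13 in I and 5 in both A and B, and 57 members were admitted on only 1 or 2 UMIs (3 in F, 0 in I, 18 in A and 36 in B). The depth of the members differed between genotypes, with a median of 15228 UMIs per cell in F, 20836 in I, 7143 in A and 6764 in B. No UMI of the 4 receptors was found in 294 of the 732 members, 25 in F, 8 in I, 88 in A and 173 in B. The other members held a few, so that low rather than absent receptor transcripts describe the class.

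Free RNA in droplets was read in cells that should lack Irf8, those with at least 3 UMIs of the erythroid regulators Gata1 and Klf1. Of 292 such cells (166 in F, 118 in I, 4 in A and 4 in B), 0 reached the Irf8 bound, which allows a share of up to 1.26% (exact 95% interval). This interval pools the libraries. For A alone and for B alone, which held most of the members, it runs up to 60.2%, so this check says little about them. The median depth of the 292 cells was 12971 UMIs, against 9777.5 over all cells, of which 13.3% reached the bound. Irf8 stood at 7.67 CPM (counts per 1000000 UMIs of the 3624 genes measured) over these cells and at 702 CPM over the members.

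The markers named for the class were checked against its neighbours. These were 403 receptor-positive Irf8-high cells, which differ from the members by at least 3 receptor UMIs per 10000, and 6199 Irf8-low cells, which met all bounds but that on Irf8. Classes cut on transcripts of the same cells allow no test between them, so the levels are a description.
Ly86, which encodes the MD-1 partner of the Toll-like receptor homologue RP105, stood at 114, 133, 81.4 and 77.8 CPM in the members of F, I, A and B. It stood between 19.9 and 28.3 CPM in Irf8-low cells and between 151 and 227 CPM in receptor-positive cells. The members therefore lay between their neighbours in every library.
Ms4a6b, a membrane protein of the MS4A family, stood at 32.5, 34.9, 59.9 and 44.6 CPM in the members, between 15.6 and 22.5 in Irf8-low cells and between 47.2 and 75 in receptor-positive cells. Wfdc17, a secreted protein of myeloid cells, was low at 19.9, 15.1, 16.3 and 13.5 CPM, against 7.38 to 9.39 in Irf8-low cells. In library F its level in members was no lower than the 19.4 CPM of receptor-positive cells. All 3 markers were thus above Irf8-low cells in all 4 libraries, yet higher on average in receptor-positive cells, so they do not single out the class. Kit and Cd34, the genes of the sort gate, were present, with Kit at 23.6, 28.5, 29.3 and 33.6 CPM against 43.0 to 52.6 in Irf8-low cells. Flt3, the receptor tyrosine kinase of multipotent and dendritic progenitors, stood at 21.5 to 25.3 CPM in the members.

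**Figure D1:**
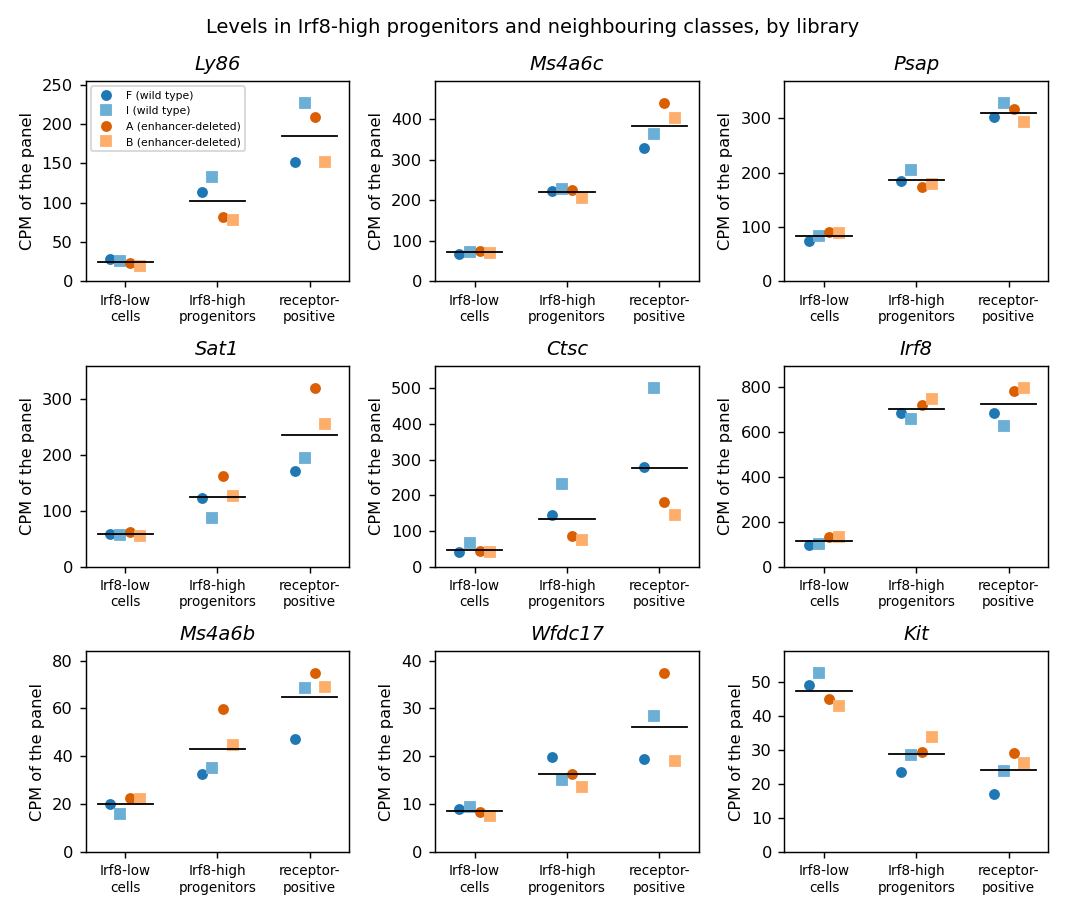
Levels of 9 genes in CPM of the panel (vertical axes, from 0) in Irf8-low cells, Irf8-high progenitors and receptor-positive Irf8-high cells, with a point for each library and a bar at the mean of the 4. Ly86, Ms4a6c, Psap, Sat1, Ctsc and Ms4a6b in the members lie between both neighbours in every library, Irf8 was set by the rule, and Kit is highest in Irf8-low cells.

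Genes of the monocyte and lysosomal programme were higher in the members than in Irf8-low cells, and genes of stem cells and erythroid cells were lower. Over all 3616 genes outside the rule, 20% were higher and 17.9% lower in the members in all 4 libraries. Of 26 measured monocyte and macrophage genes 23 were higher and 0 lower in all 4, with a median log2 ratio of 1.01, against 0.01 over all genes. Among genes of at least 100 CPM the largest ratio belonged to Ly86, at 4.17-fold.
Ms4a6c, a neighbour of Ms4a6b on chromosome 19, stood at 222, 228, 225 and 206 CPM in F, I, A and B, against 68.4, 72.0, 76.0 and 70.1 in Irf8-low cells, 3.07-fold higher on the means. Its values varied little between libraries and genotypes. F13a1, the coagulation factor XIII subunit of monocytes, was 2.55-fold higher, and Tifab, an inhibitor of TIFA signalling, 2.28-fold.
Lysosomal and secretory genes went the same way. Psap, the saposin precursor, was 2.21-fold higher, Ctsz (cathepsin Z) 1.95-fold, Napsa (napsin A) 1.93-fold, and Ctsc, the cathepsin that activates granule proteases, 2.80-fold. Clec12a, an inhibitory C-type lectin receptor, was 1.89-fold higher, and Sat1, a polyamine acetyltransferase, 2.14-fold. Of 24 antigen presentation and lysosome genes 15 were higher and 1 lower in all 4 libraries, and of 17 innate receptor genes 12 were higher and 0 lower. Of 8 measured dendritic genes 7 were higher.

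Stem and multipotent progenitor genes lay below the level of Irf8-low cells, with 19 of 23 lower and 1 higher in all 4 libraries and a median log2 ratio of -1.16. Their summed levels were closer, at 2235, 1847, 2296 and 2261 CPM in F, I, A and B against 2352, 2099, 2851 and 2781. Adgrg1 (GPR56), a receptor of stem cells, stood at 23.1, 21.4, 39.1 and 38.4 CPM against 111 to 124, 3.90-fold lower on the means. Cd24a was 3.94-fold lower and Ctla2a, a cathepsin inhibitor-like gene, 7.60-fold. Vamp5 and Nkg7, both genes of vesicle traffic or granules, were 5.50-fold and 4.38-fold lower. Of 18 erythroid genes 15 were lower, and Gata1, Alas2, Ermap and Cldn13 had 0 UMIs in the members. The globins Hba-a1 and Hbb-bs, at means of 7.14 and 20.3 CPM, were 70.8-fold and 66.2-fold lower than in Irf8-low cells, which include erythroid progenitors. Neutrophil genes showed no common direction. Of 22, 5 were higher and 6 lower in all 4 libraries, where 20% and 17.9% of all genes were. Their median log2 ratio was -0.087, and no difference of the list is read from these counts. The calprotectin subunit S100a9 was 6.62-fold lower.

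Receptor-positive cells carried more of the monocyte programme and less of the granule protease programme. Over all 3616 genes, 18.2% were higher and 12.1% lower in the members than in receptor-positive cells in all 4 libraries. Of the 26 monocyte and macrophage genes 0 were higher and 21 lower in the members, and of the 22 neutrophil genes 9 were higher and 0 lower.
Elane, the gene of neutrophil elastase, stood at 1179, 818, 460 and 402 CPM in the members of F, I, A and B, against 351, 570, 260 and 356 in receptor-positive cells. It was higher in the members of each library, by 1.86-fold on the means. Ctsg (cathepsin G) was 1.69-fold higher, Ms4a3, a marker of granulocyte-monocyte progenitors, 1.97-fold, and Serpinb1a, an inhibitor of these proteases, 1.59-fold. Srgn, the proteoglycan core of granules, was 1.60-fold higher.
Hmga2, a chromatin protein of fetal progenitors, was 1.61-fold higher than in receptor-positive cells, Cdk6 1.5-fold and Lyl1 1.42-fold. Of the 23 stem and multipotent progenitor genes 8 were higher and 3 lower in all 4 libraries, but their summed level was lower in the members of each library (2235, 1847, 2296 and 2261 against 2723, 2052, 2506 and 2336 CPM in F, I, A and B). On the other side stood Id3, an inhibitor of E proteins, 2.38-fold lower in the members, Pld4, a lysosomal nuclease of myeloid cells, 2.09-fold, Lyz2 (lysozyme) 2.05-fold and Ctsc 2.07-fold. Id1 was 1.61-fold and Rassf4 1.65-fold lower.

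Levels were also followed along Irf8 itself, over Irf8-low cells and members together, in steps under 2.5, from 2.5 to 5, from 5 to 8 and from 8 per 10000, which were chosen after the number of cells in each had been seen. The highest step held 22, 12, 59 and 112 cells in F, I, A and B. Its median depth was 13412.5, 13375, 6272 and 5432.5 UMIs per cell, against 15319, 22564, 7636.5 and 7245 at the step below.
Ly86 stood at 15.1, 65.6, 91.9 and 138 CPM over the 4 steps, as means of the libraries, and Psap at 72.9, 134, 172 and 251. Both were higher at each step. Pld4 stood at 8.97, 40.3, 59.6 and 70.3 CPM, and Id3 at 23.2, 46.9, 66.2 and 102. Ms4a6c, at 49.9, 163, 218 and 217, was level over the highest pair of steps.
Granule proteases followed another course. Mpo (myeloperoxidase) stood at 839, 1177, 1221 and 816 CPM and Prtn3 (proteinase 3) at 2439, 3813, 3801 and 3184. Their highest means lay at the middle steps, on either side of the bound. Ms4a3 stood at 237, 254, 180 and 104 CPM, and Nkg7 at 141, 47.2, 33.8 and 9.31, the last with 0 UMIs in library I. Flt3 stood at 19.7, 19.0, 19.7 and 38.1 CPM, so that it was higher only at the highest step, in all 4 libraries (26.7 to 42.7 CPM). In A the difference was small, at 26.7 against 23.0 CPM at the lowest step. The highest step summed 315702, 187545, 374606 and 671810 UMIs in F, I, A and B, so these Flt3 levels rest on few UMIs.

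**Figure D2:**
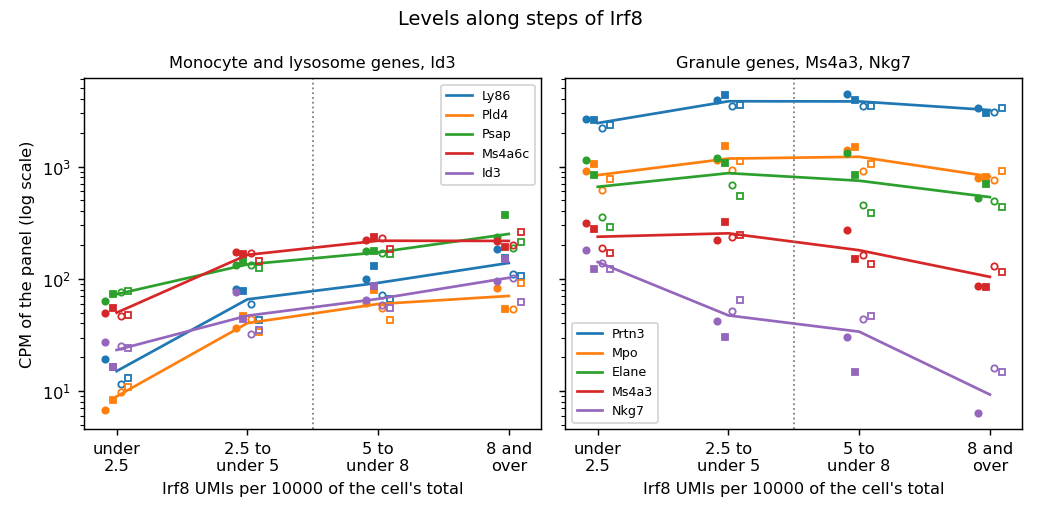
Level in CPM of the panel (log scale) against steps of Irf8 UMIs per 10000 in cells that met the other bounds, with lines through the means of 4 libraries, filled points for wild-type and open points for enhancer-deleted libraries (circles F and A, squares I and B). The dotted line marks the bound of 5, and a library at 0 UMIs (Nkg7 in I at the highest step) is not drawn.

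Single members spanned a wide range of the granule programme. Mpo, Elane, Prtn3 and Ctsg summed to a median of 66.7 UMIs per 10000 in the members of F, with quartiles of 30.7 and 104. The medians were 60.9 in I (28.3 to 89.9), 44.0 in A (30.8 to 70.4) and 45.9 in B (33.7 to 66.8). The lower quartiles were alike across libraries, and the upper quartiles were higher in both wild-type libraries. The 26 monocyte and macrophage genes summed to medians of 32.4, 29.9, 32.6 and 28.7 per 10000 in F, I, A and B, with overlapping quartiles of 20.8 to 41.3 over all libraries. The S phase and G2/M lists had medians of 41.4 to 49.2 and 66.3 to 71.3 per 10000 in the members.

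The share of Irf8-high progenitors was higher without the enhancer. They made up 4.17% of cells in library F (exact 95% interval 3.49% to 4.95%), 3.30% in I (2.55% to 4.20%), 9.35% in A (8.18% to 10.6%) and 12.1% in B (10.9% to 13.4%). Both enhancer-deleted libraries lay above both wild-type ones, at 10.7% ± 1.94 against 3.74% ± 0.617 (SD, n = 2 each). The fold was 2.85 (log2 1.51, SE 0.29, edgeR adjusted p = 0.00111 over the 5 rule classes), and an exact two-sided permutation of 4 libraries gave p = 0.333, the smallest this design allows. The intervals cover counting error only.
Because the genotypes differed in depth, each cell was also thinned to 4346 UMIs. Too shallow for this were 140 cells of the wild type and 855 cells without the enhancer. The shares were then 4.33%, 4.09%, 10.0% and 9.57% in F, I, A and B, a 2.32-fold difference (edgeR adjusted p = 0.000556). A higher Irf8 bound of 8 per 10000 gave 0.723%, 0.619%, 2.64% and 4.08%, a 4.95-fold difference. Receptor-positive Irf8-high cells rose too, from 2.04% and 1.19% to 7.20% and 5.72% (3.88-fold, edgeR adjusted p = 0.00062). The classes of a library sum to all of its cells, and cells outside all Irf8-high and Irf8-low classes fell from 33.3% to 15.3% on the means (edgeR adjusted p = 0.00318, and 0.0927 without library B).

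**Figure D3:**
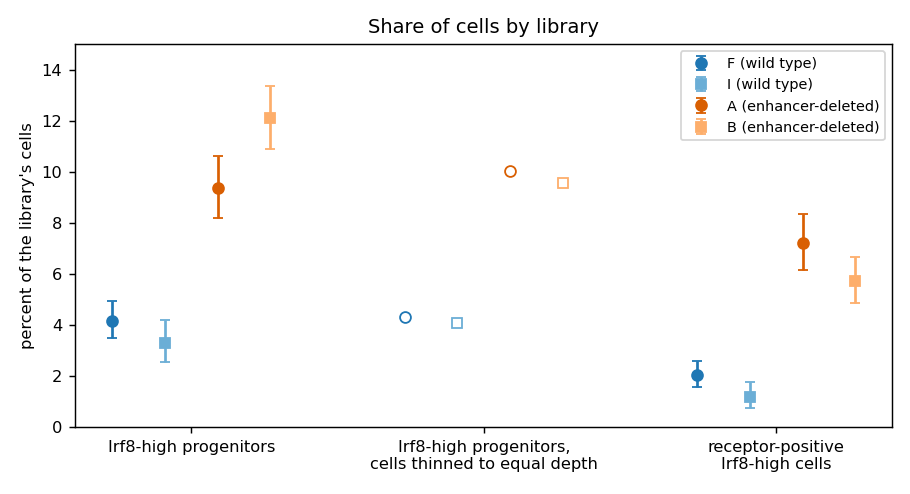
Percent of each library's cells (vertical axis) that were Irf8-high progenitors, as deposited and after thinning to equal depth (open points), and receptor-positive Irf8-high cells, with exact 95% binomial intervals on the unthinned shares. Wild-type libraries lie at 3.30% and 4.17% and enhancer-deleted libraries at 9.35% and 12.1% for the progenitors.

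Gata2 itself was nearly silent in the members of both genotypes. It stood at 2.62 and 6.34 CPM in the wild type and at 3.26 and 3.93 without the enhancer, from 5, 8, 5 and 9 UMIs, too few to enter the test between genotypes. The deleted sequence lies outside the transcript, so these counts do not read the deletion. In Irf8-low cells Gata2 stood at 40.3 and 32.6 CPM in the wild type and at 9.81 and 8.40 without the enhancer. The genotype difference of the members differed from that of Irf8-low cells by log2 1.96 (SE 0.60, edgeR adjusted p = 0.0147). Gata2 is thus counted among the genes called against Irf8-low cells below. With so few UMIs in the members, no conclusion is drawn from this call.

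Within the members few genes differed between genotypes, and most of those were lower without the enhancer, among them genes of neutrophil granules. Of 3527 genes tested outside the rule, 15 passed the threshold in edgeR (0.425%), 4 higher (0.113%) and 11 lower (0.312%) without the enhancer. At an unadjusted p under 0.05 there were 416 genes (11.8%), and the genotypes did not overlap for 1472 (41.7%). Without library A or without B a single gene passed, S100a8, while without F or I 207 and 63 passed. After thinning, which also changes which cells are members, 12 genes passed, and 4 of them were among the 15 (Elane, Hp, Pim1 and Tmem176b). The rule genes are given without a test. Cebpe stood at 22.0 and 30.1 CPM in wild-type members and at 9.77 and 9.61 without the enhancer. Ly6c2 stood at 81.2 and 95.9 against 49.5 and 27.1 CPM. Ccr2 and Csf1r were lower without the enhancer too, Irf8 was higher, and Cx3cr1, Trem2 and Mcpt8 overlapped. The part of these differences in the genes called was not tested.
Hp, the gene of haptoglobin (chromosome 8, 109575128 to 109579172), stood at 224 and 260 CPM in the wild type and at 99.0 and 90.4 without the enhancer. Over all cells Hp stood at 263 and 250 CPM in the wild type and at 92.5 and 79.6 without the enhancer. In the members the genotypes did not overlap, and the fall was 2.50-fold (log2 -1.32, SE 0.14, edgeR adjusted p = 0.00102). Its adjusted p was 0.117 without A and 0.0579 without B.
Elane (chromosome 10, 79886247 to 79888215) fell 2.28-fold from 1179 and 818 CPM to 460 and 402 (edgeR adjusted p = 0.00954). Both wild-type libraries lay above both enhancer-deleted ones, and the same held over all cells (3135 and 2063 against 609 and 462 CPM). In members with 0 UMIs of all other rule genes, 14 cells in F, 4 in I, 67 in A and 135 in B, the log2 fold changes of Hp and Elane were 0.0028 and 0.35.

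S100a8, a calprotectin subunit of neutrophils, stood at 164 (F) and 151 (I) CPM in the wild type and at 27.4 (A) and 13.5 (B) without the enhancer, 8.03-fold lower (log2 -3.01, SE 0.22, edgeR adjusted p = 5.22e-05). It was the only gene that passed in each of the 4 fits without a library. The erythroid-regulator cells, which should lack it, held 236 CPM in F and 81.8 in I. The level in the members lay below this background in F and above it in I. Over all cells it stood at 2697, 1733, 236 and 112 CPM in F, I, A and B. After thinning its fold change was log2 -1.55 (edgeR adjusted p = 0.0663).
Stfa1, a stefin A of myeloid cells on chromosome 16, fell 2.77-fold from 212 and 304 CPM to 123 and 60.7 (edgeR adjusted p = 0.0437), above a background of 106 and 45.1 CPM in F and I. Its neighbour BC100530, at 29.3 and 28.5 against 4.56 and 5.68 CPM, had a background of 72.0 and 23.7. Fcnb (ficolin B), Gda (guanine deaminase) and Slc16a3 (a lactate transporter) were lower as well, each below 50 CPM in both genotypes. The erythroid-regulator cells held Slc16a3 at 59.5 CPM in F and 26.7 in I, against 43.0 and 30.1 in the members, and Fcnb at 13.5 and 1.19 against 16.8 and 19.8. The wild-type level of Slc16a3 thus lay below that of these cells in F and close to it in I. Over all cells Slc16a3 stood at 37.0 CPM in F and 21.6 in I, below the erythroid-regulator cells. Their level is therefore not read as a background of free RNA for this gene. The wild-type level of Fcnb lay close to its background in F. Gda stood well above its background, at 18.3 and 19.0 CPM against 3.72 and 2.96. Library A or B held 4 to 28 UMIs of each of BC100530, Fcnb, Gda and Slc16a3. Stfa1 and BC100530 belong to a cluster of near-identical genes, and how their reads were split is not given in the sources used here.

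The remaining falls were in genes of proteolysis, growth signalling and protein folding. Ctsc fell 2.27-fold, from 144 and 232 CPM to 86.0 and 73.8 (edgeR adjusted p = 0.0225), far above its background of 17.2 and 16.6 CPM. Pim1, a kinase induced by cytokine signalling, fell 1.92-fold, from 134 and 129 CPM to 54.7 and 76.9 (edgeR adjusted p = 0.0131). Hspa5 (BiP), the chaperone of the endoplasmic reticulum, fell 1.59-fold, from 394 and 529 CPM to 277 and 285 (edgeR adjusted p = 0.0475). The erythroid-regulator cells of F and I held Pim1 at 85.0 and 90.7 CPM and Hspa5 at 130 and 149.
Among the rises was Ccl9, a chemokine of myeloid cells, which rose from 130 and 117 CPM to 221 and 235 (1.88-fold, edgeR adjusted p = 0.00954). Ifi203, an interferon-inducible gene of the PYHIN family, rose 2.03-fold, from 54.0 and 42.0 to 93.1 and 101 CPM (edgeR adjusted p = 0.0131). Tmem176b, a membrane protein of myeloid and dendritic cells, rose 1.71-fold, from 83.3 and 92.0 to 151 and 142 CPM (edgeR adjusted p = 0.0192). Cd24a, a surface glycoprotein of immature cells, rose 3.28-fold, from 22.0 and 12.7 to 42.3 and 71.6 CPM (edgeR adjusted p = 0.0240). The erythroid-regulator cells of F and I held Ccl9 at 44.6 and 41.5 CPM and Ifi203 at 5.11 and 4.74. They held Tmem176b at 86.9 and 80.6 CPM, close to its level in wild-type members. Cd24a stood far higher there than in the members, at 631 and 640 CPM. The part of free RNA in these levels was not tested. Over all cells of F, I, A and B, Ifi203 stood at 37.9, 37.3, 76.2 and 82.3 CPM and Tmem176b at 95.2, 102, 161 and 160. The rises of Ifi203 and Tmem176b were thus not particular to the members. Ccl9, at 172, 149, 185 and 185 CPM over all cells, and Cd24a, at 99.9, 81.8, 114 and 138, were closer between genotypes there. Every gene called but S100a8 lost the threshold both without library A and without library B, where the edgeR adjusted p ran from 0.0579 to 0.567.

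**Figure D4:**
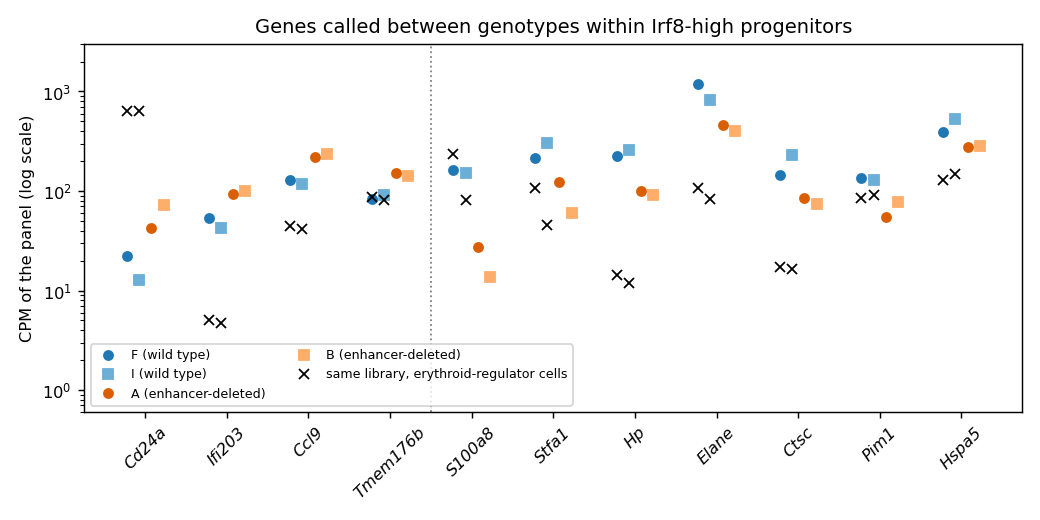
Level in CPM of the panel (log scale) of the 11 genes with at least 50 CPM that passed the test between genotypes within Irf8-high progenitors, rises left and falls right of the dotted line. Points are libraries, and crosses give the same gene in the erythroid-regulator cells of F and I, which for S100a8 lie at 236 and 81.8 CPM, around the members' 164 and 151.

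Most gene lists showed no called member. Of 18 neutrophil and primary granule genes tested 4 fell (S100a8, Hp, Elane and Fcnb) and 0 rose, with 10 lower and 1 higher at an unadjusted p under 0.05 and a median log2 fold change of -0.43, against -0.0028 over all genes. Of 26 monocyte and macrophage genes 1 rose (Ccl9) and 0 fell, with a median of -0.01. Ly86 stood at 114 and 133 CPM in the wild type and 81.4 and 77.8 without the enhancer (log2 -0.59, edgeR adjusted p = 0.062), so that this marker did not pass. Of 11 interferon genes Ifi203 rose, and of 23 antigen presentation and lysosome genes Ctsc fell.
Of 18 stem and multipotent progenitor genes 0 passed in edgeR and 0 in DESeq2, with 6 higher and 0 lower at an unadjusted p under 0.05 and a median of 0.42. Cd34 stood at 232 and 221 CPM in the wild type and at 306 and 315 without the enhancer (log2 0.49, edgeR adjusted p = 0.0737). The groups did not overlap, and the difference did not pass.
Of 30 hematopoietic transcription regulators 0 passed in either tool, with 3 higher and 2 lower at an unadjusted p under 0.05. Klf4, a monocyte factor, stood at 12.6 and 28.5 CPM in the wild type and 11.1 and 6.12 without the enhancer (log2 -1.20, edgeR adjusted p = 0.285). The lower wild-type library lay close to the higher enhancer-deleted one.
No member passed in edgeR or DESeq2 among the 7 dendritic, 12 lymphoid, 17 innate receptor and 11 cytokine receptor genes tested. Unadjusted p-values under 0.05 numbered 2, 5, 3 and 2 there. The same held for 30 S phase, 35 G2/M, 8 G1, 5 immediate early, 20 ribosomal protein, 29 oxidative phosphorylation and 10 heme synthesis genes, with 5, 5, 2, 1, 0, 7 and 2 unadjusted. Of 6 erythroid genes 0 passed, with 4 lower unadjusted and a median of -1.04, and Hbb-bs stood at 29.3 and 33.3 CPM in the wild type and 5.21 and 13.5 without the enhancer. Globin levels in Irf8-low cells were lower in the same libraries, and its part in this difference was not tested. The 5 megakaryocyte, 2 basophil or mast cell and 1 T/NK/ILC genes had 1, 0 and 1 unadjusted, and eosinophil, stromal and mature liver macrophage genes were too low to test.

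The genotype difference within the members was then set against that in receptor-positive cells. Of 3521 genes 12 differed in edgeR (0.341%), 3 higher (0.0852%) and 9 lower (0.256%) in the members' log2 fold change, while DESeq2 called 0. With library totals as scale 14 differed, 6 higher and 8 lower, and after thinning 1 differed, Plac8.
Elane fell from 1179 and 818 to 460 and 402 CPM in the members and stood at 351, 570, 260 and 356 in receptor-positive cells, where the genotypes overlap (difference -0.78, SE 0.16, edgeR adjusted p = 0.00255). S100a8 gave a difference of -1.83 and Stfa1 one of -0.90, and S100a8 in receptor-positive cells stood at 64.2, 47.3, 16.9 and 33.0 CPM. These S100a8 levels lay below the background given above in F and I.
Apoe, the lipid carrier of macrophages, stood at 143, 133, 108 and 101 CPM in the members and at 138, 199, 293 and 212 in receptor-positive cells of F, I, A and B. Both enhancer-deleted libraries lay below both wild-type ones in the members and above both in the receptor-positive cells (difference -1.07, SE 0.18, edgeR adjusted p = 9.18e-05). Within the members alone Apoe was not called, and no fit was run within receptor-positive cells alone. Lsp1, an actin-binding protein of leukocytes, behaved alike, at 229, 214, 189 and 196 CPM against 206, 258, 345 and 294 (difference -0.74, edgeR adjusted p = 0.00186).
Cbx3 (heterochromatin protein HP1 gamma), the chaperone Canx and Actb (beta actin) differed the other way, by 0.68, 0.58 and 0.33. Cbx3 stood at 252, 262, 260 and 316 CPM in the members and at 357, 308, 233 and 233 in receptor-positive cells. Without library B 4 genes differed and without I 36. Elane, Stfa1, Cbx3 and Canx lost the threshold without F and without B, Lsp1 and Canx without A, Apoe and Lsp1 without F, and S100a8 and Actb without B.

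**Figure D5:**
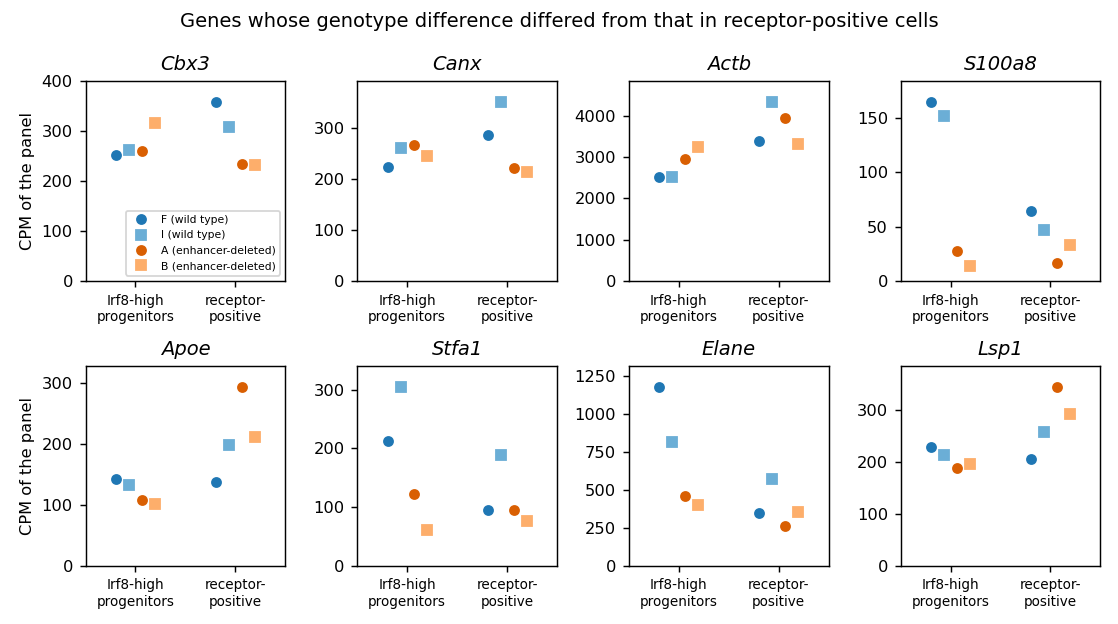
Level in CPM of the panel (vertical axes, from 0) in Irf8-high progenitors and receptor-positive Irf8-high cells, by library, for 8 genes whose genotype difference differed between these classes. Elane separates the genotypes in the progenitors (1179 and 818 against 460 and 402) and not in receptor-positive cells, and Apoe is higher in enhancer-deleted libraries in receptor-positive cells and not in the progenitors.

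Against Irf8-low cells the genotype difference of the members differed for 421 of 3611 genes in edgeR (11.7%), 277 higher (7.67%) and 144 lower (3.99%). With library totals as scale 518 differed, 172 higher and 346 lower, so that the balance of directions depended on the scaling, and DESeq2 called 102. Without library A 144 differed and without library B 90.
Ctsc fell in the members (144 and 232 to 86.0 and 73.8 CPM) and stood at 40.9, 65.0, 44.7 and 40.6 in Irf8-low cells of F, I, A and B (difference -0.85, SE 0.12, edgeR adjusted p = 2.47e-10). Clec5a, a myeloid receptor that signals through DAP12, stood at 95.4, 109, 55.4 and 67.7 CPM in the members and at 35.7, 45.9, 40.6 and 41.7 in Irf8-low cells (difference -0.66, edgeR adjusted p = 4.63e-05). Both kept the threshold in all 4 fits without a library.
Ccnd1 (cyclin D1) stood at 92.2, 96.7, 74.2 and 94.8 CPM in the members and at 53.5, 53.5, 70.0 and 87.4 in Irf8-low cells (difference -0.64, edgeR adjusted p = 5.69e-05). Its members thus kept similar levels in both genotypes while Irf8-low cells without the enhancer stood higher. Pld4 and C1galt1c1, a chaperone of O-glycosylation, differed by -0.65 and -0.72, and lost the threshold without F, A or B.
The largest differences upward were those of Blvrb (2.3), Hbb-bt (2.18), Hba-a1 (2.16), Apoe (2.13) and Car2 (2.08). Blvrb, Hbb-bt, Hba-a1 and Car2 were low in the members, at 1.57 to 22.7 CPM in every library. Apoe was not, and stood in Irf8-low cells at 525 and 394 CPM in the wild type and 101 and 72.4 without the enhancer. Hba-a1 lost the threshold without library B, and Car2 without F and without B. The erythroid list summed to 4897 and 6472 CPM in Irf8-low cells of F and I and to 863 and 725 in A and B, and to 64.5 to 135 CPM in the members. The part of this change in the mix of Irf8-low cells was not tested.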

How the data were processed

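Sorted fetal liver cells of 4 embryos were profiled by 10x Genomics Chromium. The authors deposited raw counts (UMIs, not normalized) of 3624 genes in 9960 cells, and 2 further deposited files name the genes and give each cell's genotype and library letter. The submitters' processing notes name Cell Ranger 2.0.2, Seurat 2.3.4 and mm10. How genes and cells were chosen is not given in the sources used here. The table has no header, so its columns were assumed to follow the order of the grouping file, whose mutant code was read as enhancer-deleted. The order was checked on Xist: the letters alternate along the table (2515 changes), yet a Xist UMI was found in 1 of 3042 cells in F, 1902 of 1938 in I, 0 of 2235 in A and 2317 of 2745 in B. The letters match no sample label, so a library carries only its genotype. It holds no barcodes, so barcodes shared between libraries could not be counted, and no doublet caller was run. Median depth per library ran from 7087 to 17437.5 UMIs per cell.

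The members and gene lists were chosen with earlier results of these data known. UMIs were summed per library over each class, so that the library is the replicate (n = 2 per genotype). The quasi-likelihood test of edgeR 4.0.16 (in R 4.3.3, two-sided) was run after filterByExpr and TMM scaling, and p-values were adjusted by Benjamini-Hochberg over all genes, with a threshold of 0.05. Differences between classes used the interaction of class and genotype with the library as a factor. The 8 rule genes stayed in the fits and out of the counts. CPM refers to the genes of the table. Fold changes between genotypes are fitted, and those between classes are ratios of mean CPM. Positive values are higher without the enhancer.

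Within the members, genes were named among those past the threshold when the genotypes did not overlap and the higher group had at least 50 CPM, up to 10 in each direction, with up to 3 members of each gene list by smallest p and Gata2. For the comparison with a neighbouring class the 10 largest ratios in each direction were taken, among genes of at least 100 CPM with the same direction in all 4 libraries, and for each interaction up to 5 genes of either sign. Called genes under 50 CPM, the erythroid-regulator cells and the Irf8 steps were chosen after their values were seen. Planned Irf8 bands up to 20 per 10000 and over were not used, since no wild-type member reached the highest.

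The alternatives tried were the Wald test of DESeq2 1.42.0, its size factors, scaling by library totals, no filter, thinned cells, other bounds, removal of the deepest 5% of cells, equal cells, a term for Xist and leaving out each library. Tested on simulated data with 200 genes changed, the fit within the members recovered 93% of 2-fold and 41% of 1.5-fold changes and called 12 of 3329 unchanged genes. For the differences from receptor-positive and Irf8-low cells it recovered 62% and 79% of 2-fold changes. The simulation gave every gene the same set dispersion, not estimated from these libraries, and changed only genes with many UMIs. These percentages are therefore not the power of the fits on the real libraries.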

Additional observations from a re-analysis of the deposited data

Results flagged for a closer look

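The genotype difference in Irf8-high progenitors differed from that in receptor-positive Irf8-high cells, by the edgeR interaction test, for the following named genes. Differences of log2 fold changes (members minus the other class) were -1.83 for S100a8, -1.07 for Apoe, -0.90 for Stfa1, -0.78 for Elane and -0.74 for Lsp1. They were 0.68 for Cbx3, 0.58 for Canx and 0.33 for Actb. By DESeq2 none of these passed, and each lost the threshold in edgeR when at least 1 library was left out.

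Against Irf8-low cells the same test gave 2.3 for Blvrb, 2.18 for Hbb-bt, 2.16 for Hba-a1, 2.13 for Apoe and 2.08 for Car2. It gave -0.85 for Ctsc, -0.72 for C1galt1c1, -0.66 for Clec5a, -0.65 for Pld4 and -0.64 for Ccnd1. Of these, Blvrb, Hbb-bt, Apoe, Ctsc, Clec5a and Ccnd1 kept the threshold in all 4 fits without a library.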

How the results depend on the processing

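The higher share of Irf8-high progenitors without the enhancer kept its direction in every alternative run, and its threshold in each run on all 4 libraries. The fold ran from 2.32 (thinned cells) to 11 (other rule genes at 0 UMIs), and from 2.48 to 3.25 with a library left out. A bound at 0 UMIs is met more easily by shallow cells, and cells without the enhancer were shallower. No receptor UMI was found in 19.7% and 12.5% of members in F and I, and in 42.1% and 52.1% in A and B. The part of depth in the 11-fold difference was not tested. Against 15 genes called between genotypes within the members, an Irf8 bound of 3 called 4 (all among the 15), a bound of 8 called 4 (3 of them), the other rule genes at 0 UMIs called 0, equal cells called 5 (all of them) and a term for Xist called 48. Leaving out a library called 1 to 207. At 0 UMIs of the other rule genes the log2 fold changes were 0.0028 for Hp, 0.35 for Elane, 0.092 for Ctsc and 0.10 for Hspa5. Against 12 genes that differed from receptor-positive cells, DESeq2 called 0, thinned cells called 1 and leaving out a library called 4 to 36. After thinning S100a8 differed by 0.49 there. Against 421 that differed from Irf8-low cells, DESeq2 called 102 (all among the 421), thinned cells 185 (159 among them) and leaving out a library 90 to 342. Over 1075 alternatives for named genes, 906 stayed on their side of the threshold in the same direction or without a call, 125 lost it, 39 gained it and 5 reversed. Most of the 1075 belong to genes that no main fit called, for which staying uncalled counts among the 906. All 125 losses and all 5 reversals fell on genes called in a main fit, so their share among called genes was higher. The cause of these changes was not tested. No paired analysis was possible because the library letters carry no replicate numbers. The term for Xist sets F with A and I with B by a measured transcript, and is no pairing from the labels. With 2 libraries per genotype, a fit without a library assumes that the lone library varies like the others.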
